A study of Arabidopsis thaliana with 16 samples.

Results

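The comparison of low light arrays asked how the rosette transcriptome of the Arabidopsis thaliana sap3 knockout differed from that of the Col-0 wild type (WT) before any high light was given. The arrays were chosen by their labels and by 1 measured value, the signal of HSP90.1, a heat-inducible cytosolic chaperone. That left 5 of the 16 arrays of the series: WT low light replicates 1, 2 and 3 and sap3 low light replicates 1 and 3. The array labelled sap3 low light replicate 2 was left out because its log2 signal for HSP90.1 was 11.09, above the limit of 6. The highest HSP90.1 signal among the 5 arrays kept was 3.86. Heat shock genes are therefore described here without a test.

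All plants were grown for 3 weeks at 80 to 100 µmol photons m-2 s-1 in a 10 h photoperiod and then kept for 10 days at 8 µmol photons m-2 s-1, which is low light (LL). High light (HL) plants then received 800 µmol, for 60 min in the series' design text and for 10 min in its treatment protocol. Each single-replicate array holds RNA from whole rosettes of 15 plants, numbered as a biological replicate, and 4 further arrays are pools of 45 plants (WT and the cml49 knockout, in LL and HL). The labels give neither the allele of the sap3 line nor the number of independent lines.

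SAP3 encodes one of the stress-associated proteins, a plant family with A20 and AN1 zinc finger domains. Several members of the family are induced by abiotic stress, and some A20/AN1 proteins have been linked to ubiquitin binding or ligase activity. Plants moved from dim to strong light adjust photosynthesis, translation and the transcription of stress genes within minutes to hours, and a mutant's starting state in dim light is the baseline for that response.

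SAP3 signal was lower in both sap3 arrays than in every WT array of the comparison. The WT arrays read 4.85, 4.84 and 5.14 in log2 signal, and sap3 replicates 1 and 3 read 4.21 and 4.05. The difference, sap3 minus WT, was -0.81 (SE 0.16, 95% interval -1.19 to -0.43, n = 3 WT and 2 sap3 arrays). Its adjusted p was 0.653 in limma's moderated test with Benjamini-Hochberg adjustment over 28403 probe sets, so the knocked-out gene itself did not pass the threshold of 0.05. Neither the labels nor the files say where the probes lie relative to the mutation.

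Of the other single-replicate arrays, 3 had SAP3 or HSP90.1 signals that went against their labels. The array labelled sap3 LL replicate 2 read 6.98 for SAP3, above every WT LL array. The array labelled WT HL replicate 2 read 3.94 for SAP3 and 3.62 for HSP90.1, and the array labelled sap3 HL replicate 3 read 3.74 and 3.17. The remaining 4 HL arrays read 9.77 to 10.21 for HSP90.1. In those 4 arrays SAP3 was 6.14 and 6.48 in WT and 5.06 and 5.28 in sap3, a difference of -1.14 (SE 0.19). With all 6 LL arrays as labelled, the SAP3 difference in LL was 0.14. The 4 HL arrays share no array with the LL comparison and serve below as a second measurement of the genotype difference.

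**Figure D1:**
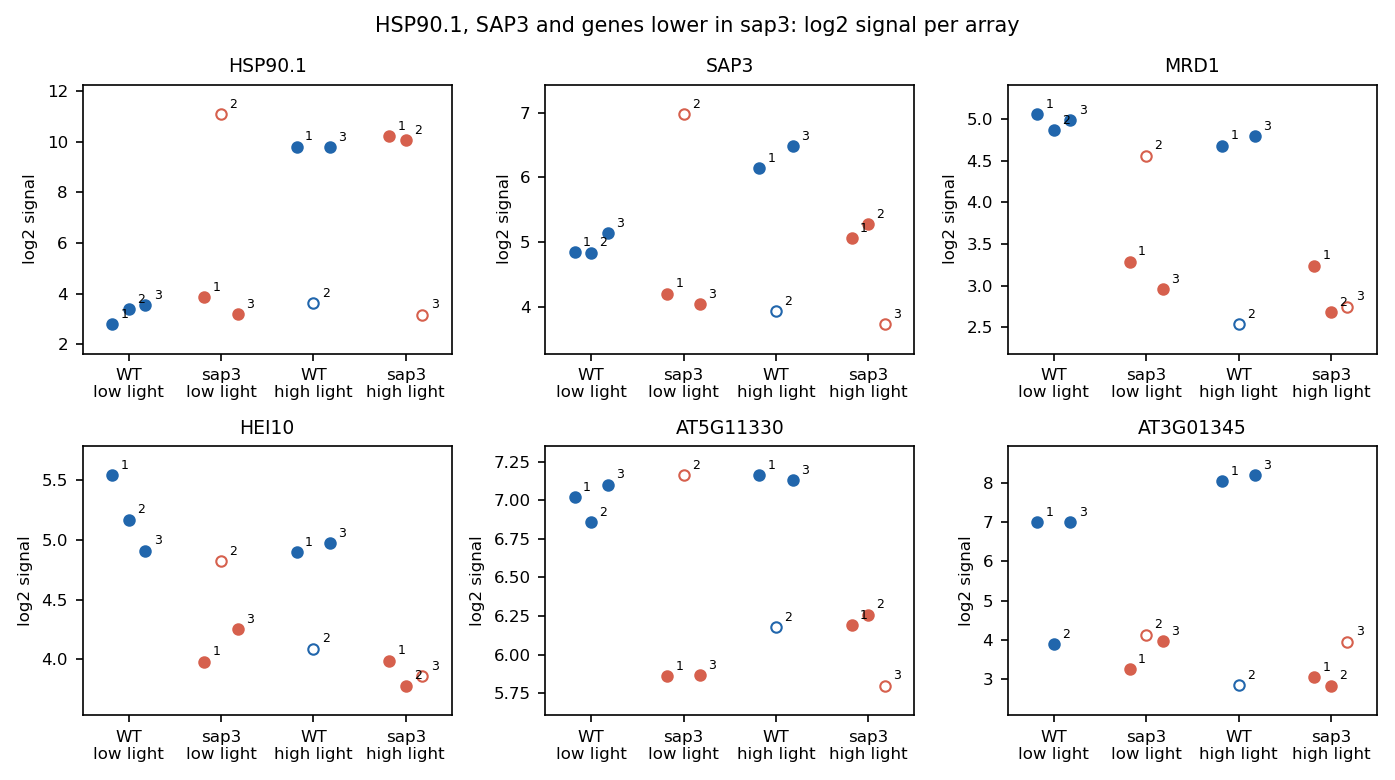
Log2 signal (vertical axes) of HSP90.1, SAP3 and 4 genes lower in sap3, in the 12 single-replicate arrays by label; digits are replicate numbers. Filled points are the arrays compared in LL or HL, open points the 3 arrays whose HSP90.1 signal went against their light label. MRD1 reads 4.87 to 5.06 in the WT LL arrays and 2.96 to 3.29 in the 2 sap3 LL arrays.

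No probe set passed the adjusted threshold in LL (0% of 28403, limma, smallest adjusted p = 0.146). At an unadjusted p under 0.05 there were 1614 probe sets (5.68%), of which 963 were higher in sap3 (3.39%) and 651 lower (2.29%). The signals of the genotypes did not overlap for 5557 probe sets (19.6%), with 2985 higher (10.5%) and 2572 lower (9.06%) in sap3, and 61 differed by at least 1 in log2 (0.215%). With all 6 LL arrays as labelled, 0 passed and 1345 had an unadjusted p under 0.05 (4.74%). When probe sets below the median signal of 4.37 were left out, 1 passed, MRD1. When 4 HL arrays were added and the variance prior was let depend on the mean, a setting chosen after seeing the data, 5 passed (0.0176%): MRD1, AT5G11330, ZAT10, HIR2 and CPK28. Every gene below is therefore reported by its values and not as changed, unless stated.

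The median absolute difference between arrays was 0.18 to 0.20 within WT, 0.21 between the 2 sap3 arrays and 0.19 to 0.22 between genotypes. At least 1 log2 unit separated 334 to 365 probe sets within WT pairs, 493 in the sap3 pair and 356 to 583 between genotypes. The precision of each difference is limited by the number of arrays: 3 against 2 cannot give an exact two-sided permutation p below 0.1.

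**Figure D2:**
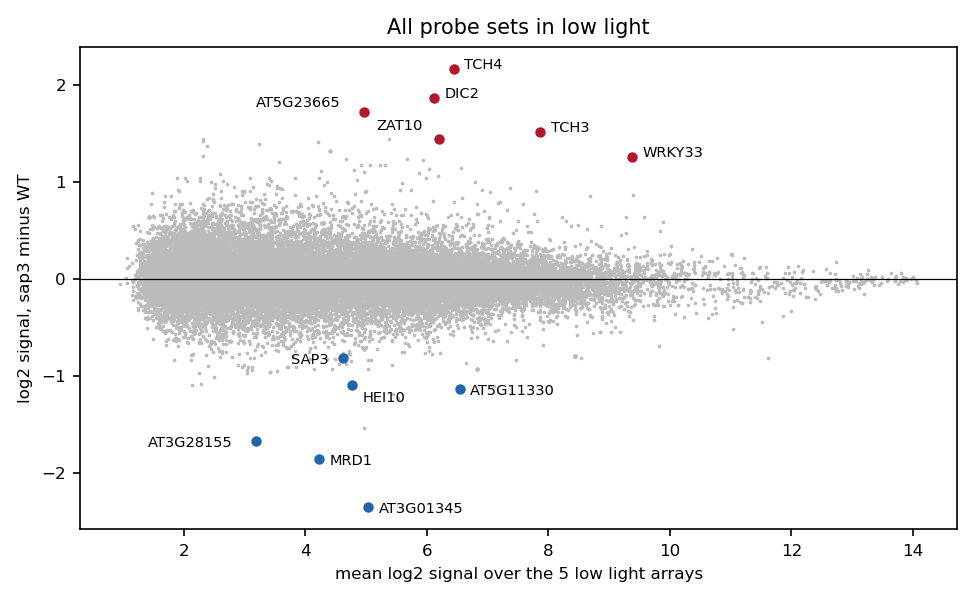
Log2 difference in LL, sap3 minus WT (vertical axis), against the mean log2 signal over the 5 arrays (horizontal axis), 1 point for each of 28403 probe sets. The named genes with a difference above 0 are red and those below 0 blue; none passed the adjusted threshold, and 61 points lie at 1 or more from 0.

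MRD1 (AT1G53480) had the smallest p of the comparison. The gene is named for its reduced transcript in the mto1 methionine-overaccumulation mutant. WT arrays read 5.06, 4.87 and 4.99 and sap3 arrays 3.29 and 2.96. All 3 WT values lay above both sap3 values, with a gap wider than the spread in either genotype. The difference was -1.85 (SE 0.16, 95% interval -2.23 to -1.47, unadjusted p = 5.13e-06, limma adjusted p = 0.146). Without the dim probe sets its adjusted p was 0.0246. In HL the difference was -1.78 (SE 0.22), from WT at 4.68 and 4.79 and sap3 at 3.24 and 2.68.

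HEI10 (AT1G53490), a RING finger protein required for meiotic crossovers, lies on the opposite strand of the same stretch. The authors' file places the MRD1 probe set at chr1:19963047-19964712 on the minus strand and that of HEI10 at chr1:19963267-19966952 on the plus strand, with no genome build named. HEI10 read 5.54, 5.17 and 4.91 in WT and 3.98 and 4.25 in sap3. Here too the genotypes did not overlap, with a difference of -1.09 (SE 0.21, adjusted p = 0.653 by limma) in LL and -1.05 (SE 0.17) in HL. The 16 other probe sets within 25 kb had differences of -0.54 to 0.39 in LL and -0.38 to 0.30 in HL, and 1 of them, AT1G53560 (0.36), had an unadjusted p under 0.05 in LL.

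Low MRD1 signal was not confined to arrays labelled sap3. The array labelled WT HL replicate 2 read 2.54 and that labelled sap3 HL replicate 3 read 2.75, whereas the array labelled sap3 LL replicate 2 read 4.56. Among the pools, the arrays labelled WT read 2.83 in LL and 2.46 in HL, and those labelled cml49 read 4.31 and 4.70. HEI10 followed the same order in the pools, with 3.94 and 3.60 in those labelled WT and 4.44 and 5.16 in those labelled cml49. In the pools, low MRD1 signal thus came with the WT label. SAP3 did not follow MRD1 there, at 4.90 and 6.43 in the pools labelled WT and 4.76 and 6.01 in those labelled cml49. The authors' deposited wt-ctrl mean includes the pool labelled cml49 LL, and their SAP3ko mean that labelled WT LL. Whether the pool labels are right was not tested.

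AT5G11330, annotated as a FAD/NAD(P)-binding oxidoreductase, had the next smallest p among the lower genes. WT arrays read 7.02, 6.86 and 7.10 and sap3 arrays 5.86 and 5.87, so the 2 sap3 arrays were nearly equal and far below WT. The difference was -1.13 (SE 0.15, 95% interval -1.48 to -0.78, limma adjusted p = 0.653). In HL it was -0.92 (SE 0.16), with WT at 7.16 and 7.13 and sap3 at 6.19 and 6.26. The 4 pools all read above the 3 WT arrays, at 7.18 to 7.46. The array labelled sap3 LL replicate 2 read 7.16, that labelled WT HL replicate 2 read 6.18, and that labelled sap3 HL replicate 3 read 5.80.

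AT3G01345, a locus annotated as a hypothetical protein, had the most negative difference in LL, at -2.35 (SE 0.87, limma adjusted p = 0.828), but its genotypes overlapped. WT replicates 1 and 3 read 7.0 and 7.01, WT replicate 2 read 3.90, and the sap3 arrays read 3.26 and 3.98. It was the 1 probe set that passed in HL (0.00352% of 28403), where it fell by 5.16 in sap3 (SE 0.17, limma adjusted p = 0.00057, n = 2 arrays a genotype). With all 6 HL arrays as labelled, no probe set passed in HL, and the AT3G01345 difference was -3.07. Without any 1 of the 4 arrays its difference was between -5.28 and -5.06, but such a fit leaves 1 array in a genotype. The pools read 3.17, 3.60 and 3.87 except that labelled cml49 HL, at 7.97.

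Among the 10 lower genes with the smallest p, SAP3 included, the difference had the same sign in HL for 9, against 52.9% of all probe sets. An unadjusted p under 0.05 in HL was reached by 5 of the 10, where 2.17% of all probe sets reached it as lower in sap3. These 5 were MRD1, AT5G11330, HEI10, SAP3 and AT3G28155, a hypothetical protein locus with -1.67 in LL and -0.84 in HL. SAP3 is the mutated gene, and the MRD1 and HEI10 probe sets overlap on opposite strands. Neither the 5 nor the 9 are therefore independent loci. AT3G28155 read 3.88, 3.40 and 4.29 in WT and 2.62 and 1.75 in sap3 in LL. The gene outside the shared sign was A/N-InvB, a neutral invertase that cleaves sucrose, at -0.95 in LL and 0.22 in HL.

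The other 4 were AT4G13245, AT5G49750, AT4G34790 and BCH1. AT5G49750 encodes a leucine-rich repeat protein and AT4G34790 a SAUR-like auxin-responsive protein. AT4G13245 read 7.43, 7.59 and 7.62 in WT against 6.73 and 6.17 in sap3 (difference -1.1). BCH1 encodes a beta-carotene hydroxylase that makes xanthophylls, and read 3.61, 3.28 and 3.56 in WT against 2.66 and 2.68 in sap3 (difference -0.81). The BCH1 difference in HL was -0.25, where WT read 5.10 and 4.97 and sap3 5.18 and 4.39, so the genotypes overlapped there.

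**Figure D3:**
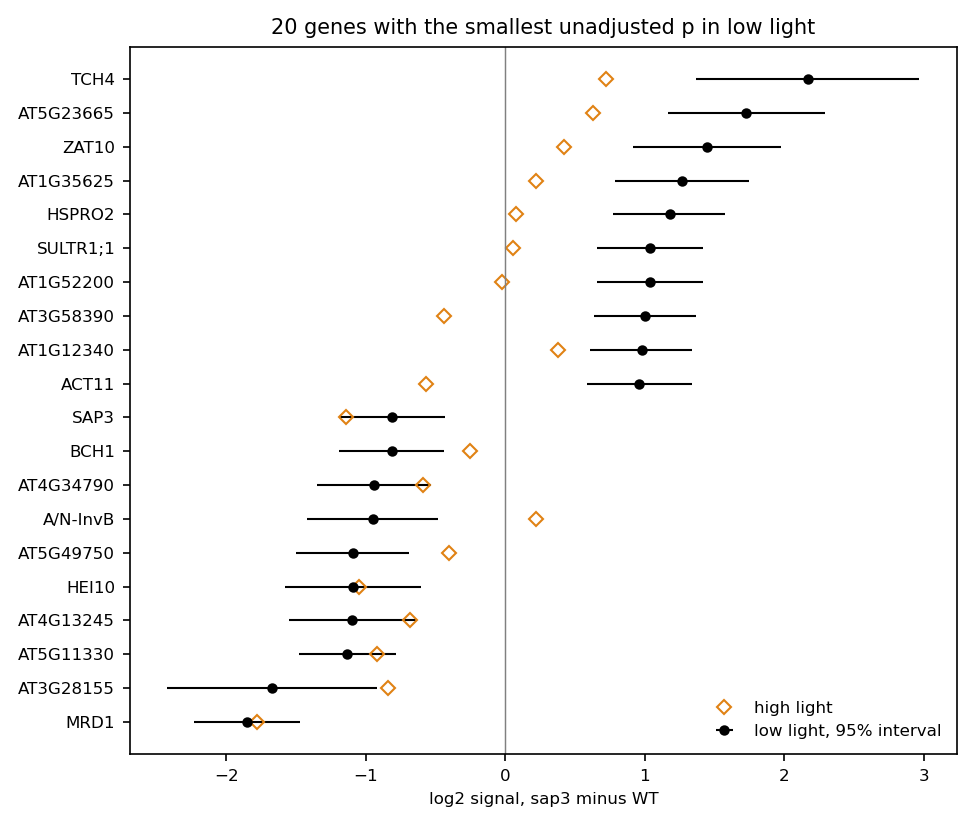
Log2 difference, sap3 minus WT (horizontal axis), of the 10 genes higher and 10 genes lower in sap3 with the smallest unadjusted p in LL. Black points with bars are LL differences with 95% intervals, and open diamonds are HL differences. The LL and HL values are -1.85 and -1.78 for MRD1, -1.09 and -1.05 for HEI10 and 1.18 and 0.08 for HSPRO2; no difference between light levels passed its test.

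Among the 10 higher genes with the smallest p, the HL difference had the same sign for 7 (52.9% of all probe sets), and 0 of the 10 had an unadjusted p under 0.05 in HL (2.59% of all probe sets did as higher in sap3). TCH4, a touch-inducible xyloglucan endotransglucosylase/hydrolase of the cell wall, had the most positive difference of all probe sets. It read 5.70, 5.22 and 5.80 in WT and 7.15 and 8.34 in sap3, a difference of 2.17 (SE 0.34, 95% interval 1.37 to 2.97, limma adjusted p = 0.653). Both sap3 arrays stood above WT, but they lay farther apart than the WT arrays did. In HL it read 5.56 and 5.86 in WT and 5.77 and 7.09 in sap3, and the genotypes overlapped.

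ZAT10, a zinc finger repressor induced by light and abiotic stress, read 5.62, 5.24 and 6.01 in WT and 7.12 and 7.02 in sap3. Its difference was 1.45 (SE 0.23, limma adjusted p = 0.653) in LL and 0.42 (SE 0.19) in HL. HSPRO2, an ortholog of a sugar beet nematode resistance protein, read 4.62, 4.96 and 4.71 in WT and 5.80 and 6.08 in sap3. Its difference was 1.18 (SE 0.17) in LL and 0.08 (SE 0.24) in HL. SULTR1;1, a high-affinity sulfate transporter of roots, had 1.04 in LL and 0.06 in HL. ACT11, a reproductive actin, read 3.07 to 3.28 in WT and 3.98 and 4.24 in sap3 in LL, but its HL difference was -0.57.

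Of the other 5, AT5G23665 (1.73) is on a probe set that the authors' file marks as cross-hybridising, so its signal may come from other transcripts. AT1G52200, a PLAC8 family gene, had 1.04. The other 3 read still lower in WT: AT3G58390 (release factor 1 family, 1.00), AT1G12340 (cornichon family, 0.98) and AT1G35625 (a RING/U-box protein, 1.27) lay between 1.62 and 2.22 there. In a test of whether the genotype difference itself differed between LL and HL, 0 probe sets passed (limma, smallest adjusted p = 0.300, 1192 at an unadjusted p under 0.05).

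In LL, 40 probe sets were higher with no overlap and a difference of at least 1 (0.141%), and 8 were lower (0.0282%). Of these, 20 higher and 3 lower ones named 1 locus, did not cross-hybridise and had a mean log2 signal of at least 4.37, the median; this set was chosen after its values were seen. The 3 lower genes were AT5G11330, AT4G13245 and HEI10. The 20 higher genes included the touch genes TCH4 (2.17), TCH3 (1.52) and TCH2 (1.02), of which the latter pair encode calmodulin-like proteins.

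DIC2, a mitochondrial dicarboxylate carrier, read 6.10, 4.2 and 5.80 in WT and 7.35 and 7.12 in sap3 (difference 1.87, SE 0.50). TCH3 read 7.41, 6.68 and 7.70 in WT and 8.21 and 9.36 in sap3 (SE 0.39). WT replicate 2 was the lowest array for both genes and for most of the bright higher genes, which lowered their WT means. Examples are AT5G19240, at 4.72 against 6.16 and 5.80 in WT replicates 1 and 3, and ACS6, at 4.98 against 5.63 and 5.69. The exceptions were HSPRO2, MIOX2 and AT1G72900. Among transcription factors, WRKY40, a repressor of immune responses, read 4.93, 4.35 and 5.11 against 6.53 and 5.96 (1.45, SE 0.27). WRKY33, needed for resistance to necrotrophic fungi, read 9.08, 8.36 and 9.21 against 9.86 and 10.43 (1.26, SE 0.29). WRKY53, a senescence and defence regulator, had 1.13, and MYB77, a modulator of auxin responses, had 1.23.

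The same set held ZAT10, enzymes and membrane proteins. ACS6, which makes the ethylene precursor, had 1.1, and LOX4, a 13-lipoxygenase of jasmonate synthesis, had 1.11. MIOX2, which oxidises myo-inositol, had 1.24. The syntaxin SYP122 had 1.07 and HIR2, a hypersensitive-induced reaction protein, 1.15. The remaining 6 were AT2G24600 and AT5G54710 (ankyrin repeat proteins, 1.24 and 1.18), AT1G72900 (a Toll-interleukin receptor domain protein, 1.18), AT1G07135 (a glycine-rich protein, 1.18), AT5G19240 (a GPI-anchored protein, 1.05) and HSPRO2. The adjusted p of the 20 was 0.653 to 0.828 in limma.

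In HL, 19 of the 20 had a difference of the same sign (52.9% of all probe sets), and 2 had an unadjusted p under 0.05 as higher (2.59% of all probe sets). Those were HIR2 (0.48, SE 0.17) and WRKY33 (0.58, SE 0.24). The exception in sign was MYB77, at -0.05. HL signals of TCH3 were 8.50 and 8.50 in WT and 8.89 and 8.64 in sap3, above those of every WT LL array. The sap3 differences of these genes were smaller in HL than in LL by value. The genes were chosen for a large LL difference, so that order can come from the choice and says nothing about light. None of the tests of a difference between the light levels passed.

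The 3 arrays whose SAP3 or HSP90.1 signals went against their labels lay on either side of the LL means, depending on the genes. For 19 of these 20 genes, the array labelled WT HL replicate 2 lay nearer to the WT LL mean than to the sap3 LL mean, with TCH4 at 5.99, WRKY33 at 8.43 and DIC2 at 4.29. The array labelled sap3 HL replicate 3 lay nearer to the sap3 LL mean for 19 of the 20, with TCH4 at 8.19, WRKY33 at 10.52 and DIC2 at 7.28, and that labelled sap3 LL replicate 2 did so for 13. Of the 10 lower genes with the smallest p, 5 lay nearer to the sap3 LL mean in the array labelled WT HL replicate 2 (SAP3, MRD1, HEI10, AT5G11330 and AT4G13245), and the other 5, AT3G28155 included, lay nearer to the WT LL mean. In the array labelled sap3 HL replicate 3 the 10 also split into 5 and 5, and in that labelled sap3 LL replicate 2, 3 lay nearer to the sap3 LL mean. Of the 10 higher genes with the smallest p, 6, 6 and 5 lay nearer to the sap3 LL mean in the arrays labelled WT HL replicate 2, sap3 HL replicate 3 and sap3 LL replicate 2. Whether genotype or another difference between the plants or their handling moved with these genes was not tested.

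**Figure D4:**
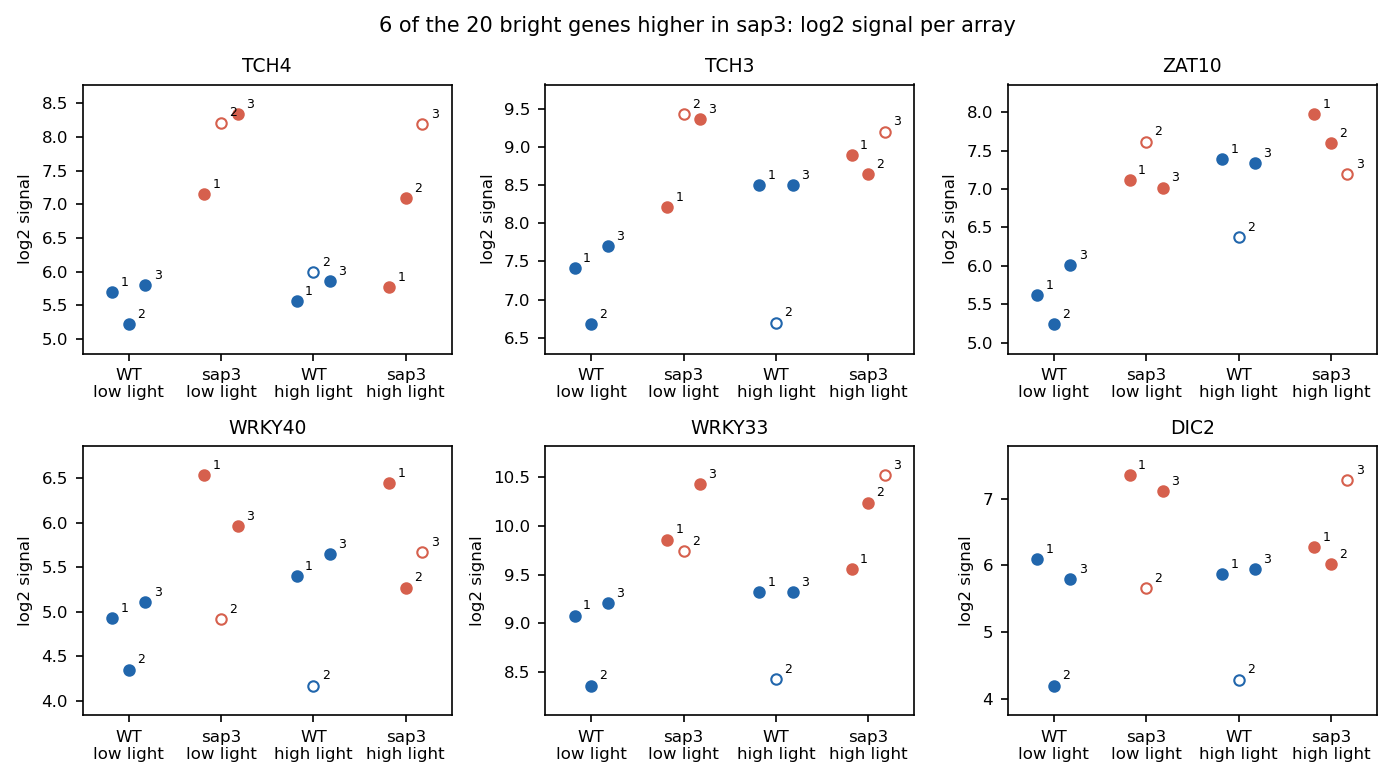
Log2 signal (vertical axes) of 6 of the 20 bright genes higher in sap3, in the 12 single-replicate arrays by label; digits are replicate numbers. Filled points are the arrays compared in LL or HL, open points the 3 arrays whose HSP90.1 signal went against their light label. In LL the filled sap3 points lie above all WT points in each panel, and the array labelled WT HL replicate 2 lies at 4.17 to 8.43, below both of them.

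The list of regulators of responses to reactive oxygen and stress had more members above 0 than below. Its 23 genes had a median difference of 0.24, against 0.00 over all probe sets, and 19 were above 0. An unadjusted p under 0.05 was reached by 8 as higher and 0 as lower (3.39% and 2.29% of all probe sets), the groups did not overlap for 10 as higher (10.5% of all probe sets), and 0 passed the adjusted threshold. Besides ZAT10 these were ERF6 (1.42), ERF104 (0.59) and ERF105 (0.53), ethylene response factors, the CCCH zinc fingers SZF1 (0.73) and SZF2 (0.81), BAP1 (0.78), a membrane-associated inhibitor of cell death, and MYB51 (0.73), a regulator of indole glucosinolates. The list's median in HL was 0.31, and in LL it was 0.18 without sap3 replicate 1 and 0.39 without sap3 replicate 3.

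ERF6 read 3.65, 3.08 and 4.2 in WT and 4.48 and 5.64 in sap3. SZF2 read 4.25, 4.14 and 4.13 in WT and 5.14 and 4.83 in sap3. MYB51 read 5.27, 5.49 and 5.28 against 5.87 and 6.28, and its HL difference of 0.66 (SE 0.17) was close to that in LL. Each of the 3 was separated by genotype in LL.

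Of 26 salicylate and defence genes, 4 were higher and 1 lower at an unadjusted p under 0.05 (3.39% and 2.29% of all probe sets), 0 passed, and the median was 0.07. The 4 were WRKY40, WRKY33, WRKY53 and CBP60G, a calmodulin-binding activator of salicylate synthesis (0.81, with WT at 5.79, 5.59 and 5.94 and sap3 at 6.60 and 6.56). The lower gene was PBS3, which conjugates salicylate's precursor (-0.44). Of 24 jasmonate and wounding genes, 3 were higher and 0 lower at that p, with a median of 0.00. They were the repressors JAZ1 (0.54) and JAZ10 (0.52) and the synthesis enzyme AOC3 (0.50).

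Sugar starvation and dark-induced genes had a median of 0.25, and 24 of 28 were above 0. At an unadjusted p under 0.05, 6 were higher and 1 lower (3.39% and 2.29% of all probe sets), and 0 passed. SEN1, a gene induced by darkness and senescence, read 8.65, 9.61 and 8.89 in WT and 9.51 and 10.33 in sap3 (difference 0.87), so the genotypes overlapped. ASN1, asparagine synthetase, had 0.64 and also overlapped. DIN10 (0.64), a raffinose synthase-like gene, GDH2 (0.72), a glutamate dehydrogenase, TPS11 (0.45), a class II trehalose phosphate synthase, EXL1 (0.74), an exordium-like gene, and MIOX2 were higher without overlap, as were 10.5% of all probe sets. The lower gene was DRM2 (AT2G33830), dormancy-associated, at -0.40. WT replicate 2 stood above the other WT arrays here: the median shift of the list from the WT mean was 0.21 in it, -0.08 and -0.16 in WT replicates 1 and 3, and 0.12 and 0.36 in sap3 replicates 1 and 3. The median of the differences was 0.44 without WT replicate 2, 0.12 without sap3 replicate 3, and -0.50 with all 6 LL arrays as labelled.

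The glucosinolate pathway had the lowest list median, -0.26, with 4 of 23 measured members above 0. At an unadjusted p under 0.05, 3 were lower and 1 higher (2.29% and 3.39% of all probe sets), and 0 passed. CYP79B2 and CYP79B3, which convert tryptophan in indole glucosinolate synthesis, had -0.70 and -0.45. MYB29, a regulator of aliphatic glucosinolates, had -0.52. The 1 higher gene was MYB51. The list's shift from the WT mean was -0.03 in sap3 replicate 1 and -0.46 in replicate 3, while WT replicate 2 was at -0.21, and without sap3 replicate 3 the median was -0.03. It was -0.12 with all 6 LL arrays as labelled. In HL the list's median was -0.09.

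**Figure D5:**
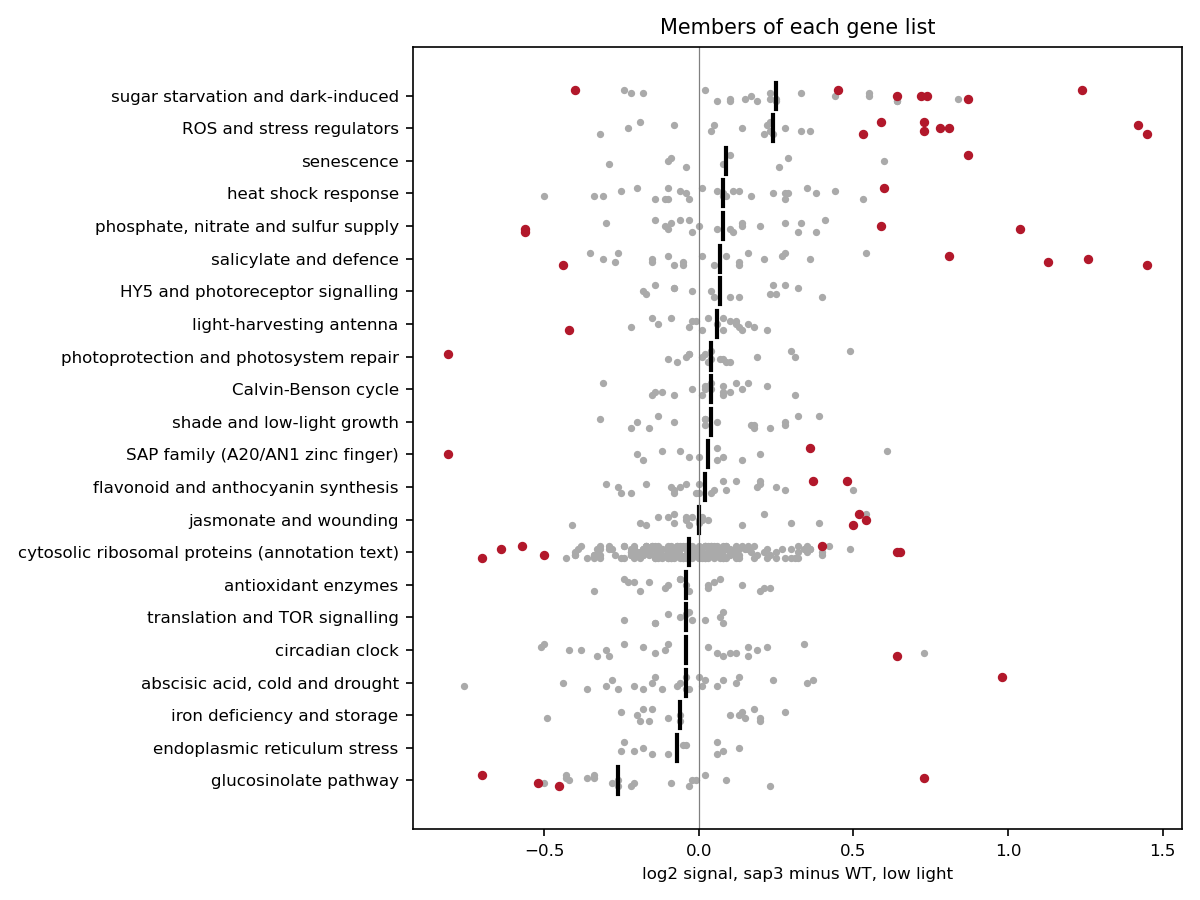
Log2 difference in LL, sap3 minus WT (horizontal axis), of the members of 22 gene lists, 1 point a gene. Red points have an unadjusted p under 0.05, grey points do not, and black bars are list medians. Medians run from -0.26 (glucosinolate pathway) to 0.25 (sugar starvation).

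The SAP family was described member by member for the mutated gene's relatives. Of 14 genes, SAP3 and SAP10 had an unadjusted p under 0.05, as did 5.68% of all probe sets. SAP10 read 3.67, 3.46 and 3.62 in WT and 3.96 and 3.92 in sap3, a difference of 0.36 in LL and 0.46 in HL. SAP14 had 0.61 with overlapping genotypes. Lower without overlap, like 9.06% of all probe sets, were SAP3 and 3 more, SAP1 (-0.18), SAP4 (-0.12) and SAP8 (-0.20), whose unadjusted p was 0.248, 0.407 and 0.232 in limma. The family's median was 0.03.

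Genes of cytosolic translation, the process named in the series' title, had medians close to 0. The 12 measured translation and TOR signalling genes had differences of -0.24 to 0.08, a median of -0.04 and no member at an unadjusted p under 0.05. TOR kinase itself read 8.14, 8.10 and 8.07 in WT and 7.95 and 7.98 in sap3 (-0.14), and the ribosomal proteins RPS6A and RPS6B, targets of the S6 kinases, had -0.14 and -0.24. Of 212 cytosolic ribosomal protein genes, 3 were higher and 4 lower at that p, in each direction a smaller share than over all probe sets (3.39% and 2.29%), with a median of -0.03. The 3 with the smallest p were AT5G15520 (0.64), RPL16A (-0.70) and AT5G60670 (-0.64). The authors' file does not mark their probe sets as cross-hybridising, and whether near-identical family members share signal on them was not tested.

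Photosynthesis lists stayed close to 0 in LL. The light-harvesting antenna had a median of 0.06, with 1 of 21 lower at an unadjusted p under 0.05 (2.29% of all probe sets), LHCA1 (-0.42). The Calvin-Benson cycle had 0.04 with 0 of 21 in either direction. Photoprotection and photosystem repair had 0.04 with 1 of 19 lower, BCH1. Antioxidant enzymes (-0.04), endoplasmic reticulum stress genes (-0.07), iron genes (-0.06), HY5 and photoreceptor signalling (0.07) and shade and low-light growth genes (0.04) had no member at that p.

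Among the remaining lists, few members stood out. The circadian clock had a median of -0.04 and 1 of 24, CCA1, at an unadjusted p under 0.05 (5.68% of all probe sets). CCA1, a morning clock factor, read 4.44, 4.60 and 4.79 in WT and 4.85 and 5.66 in sap3. PRR9, another morning gene, read 5.26 and 6.52 in sap3 replicates 1 and 3, against 4.80 to 5.37 in WT. TOC1, an evening gene, read 9.56 and 8.73 in them, against 9.51 to 9.61 in WT. For these 3 genes, sap3 replicate 3 stood apart from the other 4 arrays. CBF2, a cold response factor, was the 1 of 27 abscisic acid, cold and drought genes at that p, at 0.98 in LL and -0.46 in HL.

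The phosphate, nitrate and sulfur list had 2 higher and 2 lower of 24 at an unadjusted p under 0.05. Over all probe sets the shares were 3.39% higher and 2.29% lower. The higher were SULTR1;1 and NIA1, a nitrate reductase (0.59). APR3, which reduces activated sulfate, was lower at -0.56. PPCK1, the kinase of phosphoenolpyruvate carboxylase, also had -0.56. Flavonoid synthesis had a median of 0.02 and 2 of 26 higher, the enzyme gene DFR (0.37) and its regulator EGL3 (0.48), and senescence genes 1 of 10 higher, SEN1, and 0.09. Heat shock genes, of which HSP90.1 chose the arrays, had a median of 0.08 in LL, with 17 of 29 above 0 and differences from -0.50 (HSP17.6II) to 0.60 (HSFB2A). Their median was 1.31 with the array labelled sap3 LL replicate 2 included.

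Markers of the labelled tissue were bright. The 6 rosette leaf markers had a median log2 signal of 11.36 in WT, the small subunit gene RBCS1A reading 13.00 to 13.34 over the 5 arrays. The 12 flower and seed markers had a median of 2.38 and the 11 root markers 3.02, although the root beta-glucosidase PYK10 read 8.09 to 9.28. By genotype, the medians of the differences were 0.11 for leaf, 0.00 for root, 0.12 for flower and seed and -0.07 for guard cell markers. The seed albumin gene 2S1 (-0.60, between 1.53 and 2.24 in every array) and the stomatal patterning peptide EPF1 (-0.42), a marker of guard cell precursors, had an unadjusted p under 0.05. In whole rosettes, fewer cells of a type and less RNA per cell cannot be told apart.

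On chromosomes 1 to 5, 5.46% to 5.94% of probe sets had an unadjusted p under 0.05. The authors' file places the SAP3 probe set at chr2:11776411-11777529. Within 50 kb of it, 32 other probe sets had differences of -0.53 to 0.44, with 2 lower, NF-YB11 (-0.48) and ATC (-0.46), and 0 higher at that p, and the share at that p was 6.52% within 500 kb and 7.46% within 1000 kb (24 higher and 13 lower of 496). On the mitochondrial genome 10 of 140 probe sets were lower and 0 higher at that p, with a median of -0.10. Over all probe sets the shares were 2.29% lower and 3.39% higher.

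Small p-values came more from dim than from bright probe sets. In 4 equal classes of mean signal, from dimmest to brightest, 6.69%, 7.68%, 5.87% and 2.49% had an unadjusted p under 0.05. In the dimmest class 350 were higher and 125 lower, and in the brightest 76 were higher and 101 lower. Of 100 tRNA probe sets, 13 were lower and 4 higher (17%), against 5.55% of 26579 protein-coding ones.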

How the data were processed

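Per the labels' protocols, RNA from whole rosettes was labelled as biotinylated single-stranded cDNA and hybridised to Affymetrix gene arrays. The deposited values are log2 signals that the authors made with RMA in Affymetrix Expression Console, per the submitters' processing notes (with no version or build). The authors' deposited workbook also holds p-values of their own comparison; its 16 signal columns were not used.

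Of 28501 probe sets, 77 rescue and 21 ribosomal RNA ones were left out. Of the 28403 kept, 27306 were named by 1 locus, and 265 on another chromosome than their locus, 143 over 1 kb away and 27 with several loci were not named (RefSeq table, TAIR10.1 names only). Linear models with moderated variances (limma 3.58.1, R 4.3.3; lmFit, eBayes; Benjamini-Hochberg; threshold 0.05) compared 2 sap3 with 3 WT LL arrays, and 2 with 2 HL arrays whose HSP90.1 signal was above 6. The scripts were tested on simulated data. Replicate numbers 1 and 3 occur in both genotypes, but the labels do not say that a number marks a shared batch.

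Genes were named by rule: SAP3, HSP90.1, the 10 smallest p-values in each direction as none passed, and the 3 smallest of each list. The 20 bright higher genes, further list members, neighbouring loci, AT3G01345 and CPK28 were named after their values were seen. The arrays, lists and genes were chosen with earlier results of these data known. Alternatives changed the arrays, the variance prior, array weights, scaling, the filter on dim probe sets, the threshold and the replicates; the prior with 9 arrays was added after seeing the data.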

Additional observations from a re-analysis of the deposited data

How the results depend on the processing

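The count of 0 called probe sets in LL held under 11 of 13 other settings that kept all 5 arrays or added arrays. It also held without any 1 WT LL array (0 each time). Of the 11, the stricter threshold of 0.01 on the same fit could only give 0. Leaving out an array lowers the power, so a count of 0 there adds little. Leaving out dim probe sets gave 1 (MRD1), with 943 at an unadjusted p under 0.05, 453 of them higher. The 9 LL and HL arrays with a mean-dependent prior, chosen after seeing the data, gave 5: MRD1 and AT5G11330 lower (limma adjusted p = 0.0159 for both) and ZAT10, CPK28 and HIR2 higher (0.0337, 0.0337 and 0.0444). Without the prior's dependence on the mean, the smallest adjusted p over the 9 arrays was 0.0545. Leaving out each array in turn gave 1326 to 2415 at an unadjusted p under 0.05, 583 to 1011 of them lower; the highest counts came without sap3 LL replicate 1. With the replicate number as a block, 0 were called and 1603 had an unadjusted p under 0.05. Over all probe sets, WT replicate 1 minus 3 correlated at 0.06 with sap3 replicate 1 minus 3. This single value leaves out replicate 2 and does not show whether a number marks a shared batch. In HL no paired analysis was possible because the arrays compared share only number 1.

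The single call in HL became 0 with all 6 HL arrays as labelled. Without any 1 HL array, a genotype is left with 1 array, so only differences are given for those fits. Of 97 genes followed in LL, 92 kept their sign in every alternative. Settings that changed only the prior, the threshold or the probe sets kept, or added only HL arrays, leave each difference as it was. They cannot change a sign. A gene whose genotypes do not overlap also keeps its sign without any 1 array. The count of 92 is thus largely fixed in advance. SAP3 turned to 0.14 with all 6 LL or all 12 arrays as labelled, DIN10 to -0.03, TPS11 to -0.69 and APR3 to 1.39. HSP90.1 ranged from -0.05 to 0.62 without 1 LL array; the causes were not tested. In HL with all 6 arrays as labelled, AT5G23665 turned to -0.11, SULTR1;1 to -0.15, AT1G12340 to -0.13, AT4G13245 to 0.04 and A/N-InvB to -0.29. Without 1 HL array at a time the ranges crossed 0 for HSPRO2 (-0.26 to 0.42), AT3G58390 (-1.06 to 0.18), SULTR1;1 (-0.06 to 0.18), AT1G52200 (-0.12 to 0.07), AT1G12340 (-0.16 to 0.90), AT1G35625 (-0.31 to 0.75), ACT11 (-1.44 to 0.29), AT5G49750 (-0.90 to 0.08), AT4G13245 (-1.48 to 0.12), BCH1 (-0.64 to 0.14) and A/N-InvB (-0.01 to 0.46). Of 26 list medians, 11 moved by more than the spread between arrays with the 6 LL arrays as labelled and 11 without sap3 LL replicate 3. In the dimmest probe sets, signals near background limit what a difference can show.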

Other observations

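The authors' deposited table compares means labelled SAP3ko and wt-ctrl. Over all 28403 probe sets, the wt-ctrl mean equalled, within 0.01, the mean of 4 arrays: the 3 WT LL arrays and the pool labelled cml49 LL. The SAP3ko mean equalled that of the 3 arrays labelled sap3 LL, replicate 2 included, and the pool labelled WT LL. In the authors' deposited table, 584 probe sets were higher and 655 lower at a p under 0.05. Its log2 ratio was 0.14 for SAP3 (p = 0.847 in the authors' deposited table), -1.40 for MRD1 (0.0175) and -0.59 for AT5G11330 (0.190). In the authors' deposited table TCH4 had 1.99 (0.00437) and ZAT10 1.44 (0.0127), and HSP90.1 had 2.22 (0.289).

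CPK28, a calcium-dependent protein kinase that limits immune signalling, was not among the genes with the smallest p or a difference of at least 1. It read 6.80, 6.65 and 6.56 in WT and 7.62 and 7.53 in sap3 in LL, a difference of 0.90 (SE 0.15). In HL it read 7.54 and 7.38 in WT and 7.86 and 7.96 in sap3, a difference of 0.45 (SE 0.17). It was separated by genotype in both lights, and it was named after its values were seen.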
